A study of Homo sapiens with 8 samples.

Results

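C5AR1 and CD14 encode a pair of cell-surface receptors of innate immunity, and their transcript levels are described here in 2 human liver cell lines with and without CM272. They were taken by their symbols in the platform annotation, which named 14884 genes on this array, and each symbol had 1 probe set (16863589 for C5AR1 and 17000793 for CD14). Both passed the filter on dim values, as did 12239 of the 14884 genes. C5AR1 was selected on its fall in HepG2 with CM272, which ranked first among the falls of the 12239 genes tested, so its HepG2 values are given as a description without a test.

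The arrays measured total RNA from LX2, a line of hepatic stellate cells, and from HepG2, a hepatocellular carcinoma line. CM272 blocks G9a, which methylates histone H3, and DNMT1, which maintains DNA methylation. Either line was exposed to it at 400 nM or to its vehicle, 0.1% DMSO, over 48 h. With treated and untreated (control) cells of each line there were 4 groups of 2 arrays, and no group carried a genetic change made for the study. The medium held 2% fetal bovine serum for LX2 and 10% for HepG2, so line and serum cannot be told apart. Only 1 dose and 1 time were used. Each line is a single cell line grown without the other cells of the liver. Nothing in the labels ties the 2 arrays of a group to independent cultures, and p-values therefore reflect only how far these arrays spread, which may be technical.

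C5AR1 (also called C5aR1 or CD88) is a G protein-coupled receptor for C5a, the small peptide cut from complement component C5. It draws neutrophils and macrophages to sites of complement activation, and in liver it is known above all from Kupffer cells, the resident macrophages. CD14 is a protein held in the membrane by a lipid anchor, with no signalling part of its own. It takes bacterial lipopolysaccharide from the binding protein LBP and hands it to the complex of TLR4 and MD-2 (encoded by LY96). Monocytes and macrophages carry much of it, and hepatocytes are known to release a soluble form.

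The sequences upstream of both genes are shown because CM272 targets an enzyme that methylates cytosines in CpG dinucleotides. They are the 250 bases before the annotated start in RefSeq on build GRCh38.p14, written 5′ to 3′ on the strand of the gene, with each CpG in capitals. The C5AR1 stretch lies at chr19:47309611-47309860 on the plus strand and the CD14 stretch at chr5:140633176-140633425 on the minus strand.
C5AR1: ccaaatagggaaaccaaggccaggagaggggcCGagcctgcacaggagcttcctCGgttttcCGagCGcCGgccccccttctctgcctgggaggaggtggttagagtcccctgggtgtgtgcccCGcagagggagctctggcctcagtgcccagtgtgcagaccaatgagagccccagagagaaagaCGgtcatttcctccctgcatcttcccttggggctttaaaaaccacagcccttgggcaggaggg
CD14: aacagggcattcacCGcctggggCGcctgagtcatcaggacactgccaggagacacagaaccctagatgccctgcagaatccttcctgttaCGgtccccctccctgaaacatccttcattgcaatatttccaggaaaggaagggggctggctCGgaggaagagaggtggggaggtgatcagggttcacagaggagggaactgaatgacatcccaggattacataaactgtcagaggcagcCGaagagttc
These stretches hold 7 CpGs for C5AR1 and 5 for CD14. In the window of 300 bases that also takes in the first 50 transcribed bases, C5AR1 has 10 CpGs and CD14 has 8, against a median of 14 over 27305 promoter windows of the same length. The ratio of observed to expected CpGs in that window was 0.355 for C5AR1 and 0.350 for CD14, with a median of 0.580 over all windows. The GC content was 61.3% and 55.7%, with a median of 58.3%. Both windows therefore hold fewer CpGs than the median window, and 44.0% and 39.9% of windows hold fewer still than C5AR1 and CD14. DNA methylation was not measured.

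A set of 6 short motifs was searched on both strands of the 300-base windows. The PU.1 core GAGGAA, bound by a myeloid transcription factor and present in 27.6% of all windows, occurred at 201 and at 56 bases before the C5AR1 start and at 96 bases before the CD14 start. The CCAAT box, held by 35.7% of windows, occurred at 88 bases before the C5AR1 start and not in the CD14 window. An AP-1 site, TGANTCA, held by 7.76% of windows, occurred at 223 bases before the CD14 start and not in the C5AR1 window. The Sp1 box GGGCGG (44.6% of windows), the TATA box TATAAA (11.95%) and the E-box CACGTG (7.43%) were in neither window. No motif searched contains another, and a match describes the sequence alone.

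The arrays differed in how closely they repeated. Array medians ran from 4.19 to 4.54 on the log2 scale, and the 2 arrays of a group correlated across genes between r = 0.969 and r = 0.992. In the LX2 CM272 pair, 183 genes differed over 1 log2 unit between the arrays, against 12 to 39 genes in the other groups. The labelled cell types were checked on marker genes. The mean log2 level of 15 hepatocyte markers was 10.83 and 10.95 in untreated HepG2 and 3.93 and 3.92 in untreated LX2. That of 6 stellate and fibroblast markers (TAGLN, VIM, THY1, TIMP1, LOX and FN1) was 6.62 and 6.55 in untreated HepG2 and 8.89 and 8.86 in untreated LX2, although FN1 alone was higher in HepG2. Of the 15 hepatocyte markers, 8 passed the dim filter only through HepG2, and VIM passed it only through LX2. These had to differ in that direction, so for them the check was fixed in advance. LUM and DCN, known from stellate cells and fibroblasts, were under the filter in LX2 as well as in HepG2, and COL1A1, ACTA2 and PDGFRB carry no name in the table used here.

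On the deposited values, C5AR1 fell in HepG2 to the level it had in untreated LX2. In untreated HepG2 the log2 values were 6.39 and 6.32 (mean 6.36 ± 0.050, SD, n = 2), and with CM272 they were 4.47 and 4.46 (4.46 ± 0.0072). Both CM272 arrays lay far below both control arrays (higher CM272 array minus lower control array -1.85), and the arrays within each pair lay close together. By any distance, 28.2% of all genes tested had both CM272 arrays below both controls in HepG2. The mean change was -1.89 (SE 0.17), or 3.71-fold lower. The levels in HepG2 with CM272 (4.46) and in untreated LX2 (4.47) were both close to the dim filter of log2 4. They were also close to the array medians of those groups, 4.24 and 4.42, so the exact fold is uncertain. This contrast chose the gene, so the change is given as a description. Over the 12239 genes tested in HepG2, limma with Benjamini-Hochberg adjustment called 0% higher and 0.00817% lower, from which nothing is read about C5AR1. The next largest falls in HepG2 were those of IGFBP1 (-1.87), which binds insulin-like growth factors, MAB21L3 (-1.85) and the microRNA gene MIR548AA1 (-1.57). The pairs of arrays of IGFBP1 were further apart than those of C5AR1, at 11.50 and 10.80 without and 9.83 and 8.74 with CM272.

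In LX2, C5AR1 was dimmer and moved the other way. The values were 4.53 and 4.41 without CM272 (4.47 ± 0.087) and 5.30 and 4.82 with it (5.06 ± 0.34). Both CM272 arrays lay above both control arrays, by at least 0.29, and the CM272 pair was itself spread over more than that. By any distance, 23.5% of all genes tested had both CM272 arrays above both controls in LX2. The change of 0.59 (SE 0.17, 95% interval 0.20 to 0.97), or 1.50-fold, did not pass the threshold of 0.05, with an adjusted p of 0.0647 by limma (Benjamini-Hochberg over 12239 genes). Without LX2 CM272 replicate 2 the change was 0.83, and without LX2 CM272 replicate 1 it was 0.35. Among the genes tested, it ranked 582 from the top by its change in LX2.

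**Figure D1:**
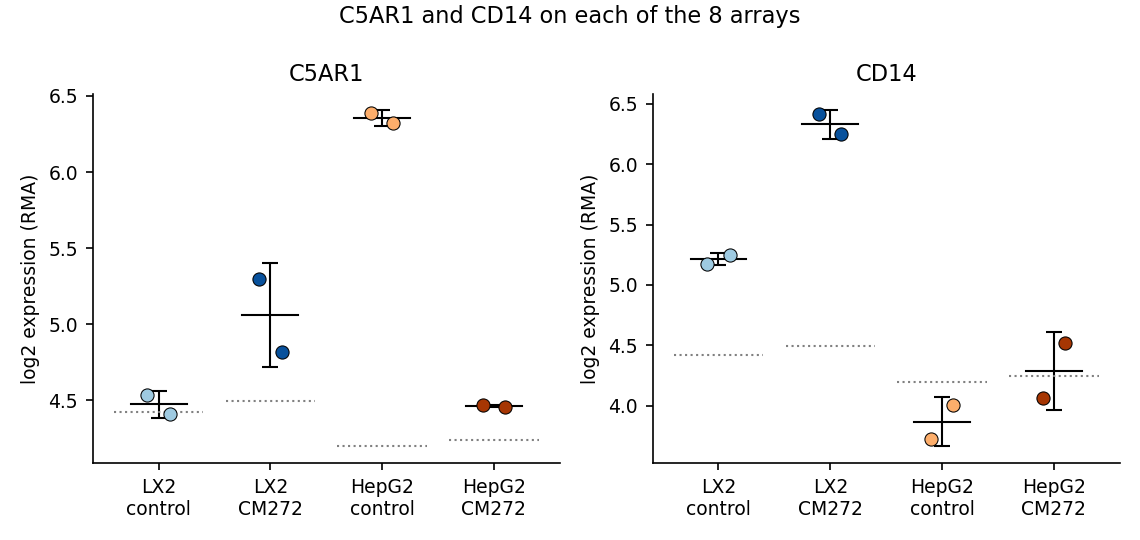
Log2 expression (RMA) of C5AR1 and of CD14, each on its own axis, in the 4 groups; each point is 1 of the 2 arrays, horizontal bars mark the group mean, error bars 1 SD, and dotted lines the mean array median of the group. C5AR1 sits at 6.39 and 6.32 in untreated HepG2 and between 4.41 and 5.30 on the other 6 arrays, while CD14 is highest in LX2 with CM272 at 6.41 and 6.25.

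CD14 rose in LX2. Its values were 5.18 and 5.25 without CM272 (5.21 ± 0.051) and 6.41 and 6.25 with it (6.33 ± 0.12). The groups were separated by 0.998 log2 units, more than the spread within either pair. By any distance, 23.5% of all genes tested had both CM272 arrays above both controls in LX2. The change of 1.12 (SE 0.18, 95% interval 0.71 to 1.53), or 2.17-fold, had an adjusted p of 0.0102 by limma (Benjamini-Hochberg). It ranked 104 from the top, and 1 of the 2 receptor genes was thus called higher in LX2, where 3.79% of all genes tested were called higher and 4.63% lower. The call needs both LX2 control arrays: without replicate 1 the change was 1.08 (adjusted p 0.096 by limma) and without replicate 2 it was 1.15 (adjusted p 0.095). Without those same arrays the calls over all genes in LX2 fell from 1031 to 97 and 55, and without LX2 CM272 replicate 2 they rose to 2496. Centring each array on its median moved the share of higher genes among all LX2 calls from 45.0% to 30.5%, with CD14 still called higher.

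In HepG2 CD14 was close to the dim filter of log2 4. It measured 3.72 and 4.01 without CM272 (3.86 ± 0.20) and 4.06 and 4.52 with it (4.29 ± 0.32). The groups did not overlap, but only 0.051 log2 units lay between them. Both CM272 arrays lay above both controls in HepG2 for 20.7% of all genes tested. The difference was 0.42 (SE 0.18), given as a description since the rule looked at this contrast, and it lay between 0.19 and 0.65 when single arrays were left out. The exact fold is uncertain because the mean of untreated HepG2 was under the filter.

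The lines held the pair of receptors in opposite order of level. Untreated HepG2 exceeded untreated LX2 for C5AR1 by 1.88 (SE 0.17), or 3.69-fold, with no overlap of arrays. That difference rests on the high HepG2 values by which the gene was chosen, and it is a description. CD14 was lower in untreated HepG2 than in untreated LX2 (difference -1.35, SE 0.18, 95% interval -1.76 to -0.94), or about 2.55-fold, with an adjusted p of 1.48e-04 by limma. Its mean in untreated HepG2, 3.86, was under the dim filter, so this fold is uncertain. Of the 2 untreated groups only LX2 passed the filter for CD14, which also passed it in HepG2 with CM272 (4.06 and 4.52). Over all genes tested, 17.7% were called higher and 40.5% lower in HepG2, so a call in that direction is common between these lines. The median of all genes between the lines was -0.27 and became -0.011 after quantile normalization over the 8 arrays, under which both differences kept their direction.

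The order of the group means for C5AR1 was HepG2 control, LX2 CM272, LX2 control and HepG2 CM272, and the last 2 differed by 0.011. Those last 2 changed places under quantile normalization over the 8 arrays and under median centring. There the untreated lines differed by 2.09 and 2.11, and the falls in HepG2 were -1.91 and -1.94. For CD14 the order was LX2 CM272, LX2 control, HepG2 CM272 and HepG2 control. The lowest neighbours in that order were 0.42 apart, with SDs of 0.32 and 0.20. The change with CM272 in HepG2 minus that in LX2 was -2.48 (SE 0.24) for C5AR1 and -0.69 (SE 0.26) for CD14, both descriptions. Of the 12239 genes, 672 (5.49%) had, like C5AR1, both CM272 arrays above both controls in LX2 and below both in HepG2. Bulk RNA from a culture does not tell fewer cells with a transcript from less transcript per cell.

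**Figure D2:**
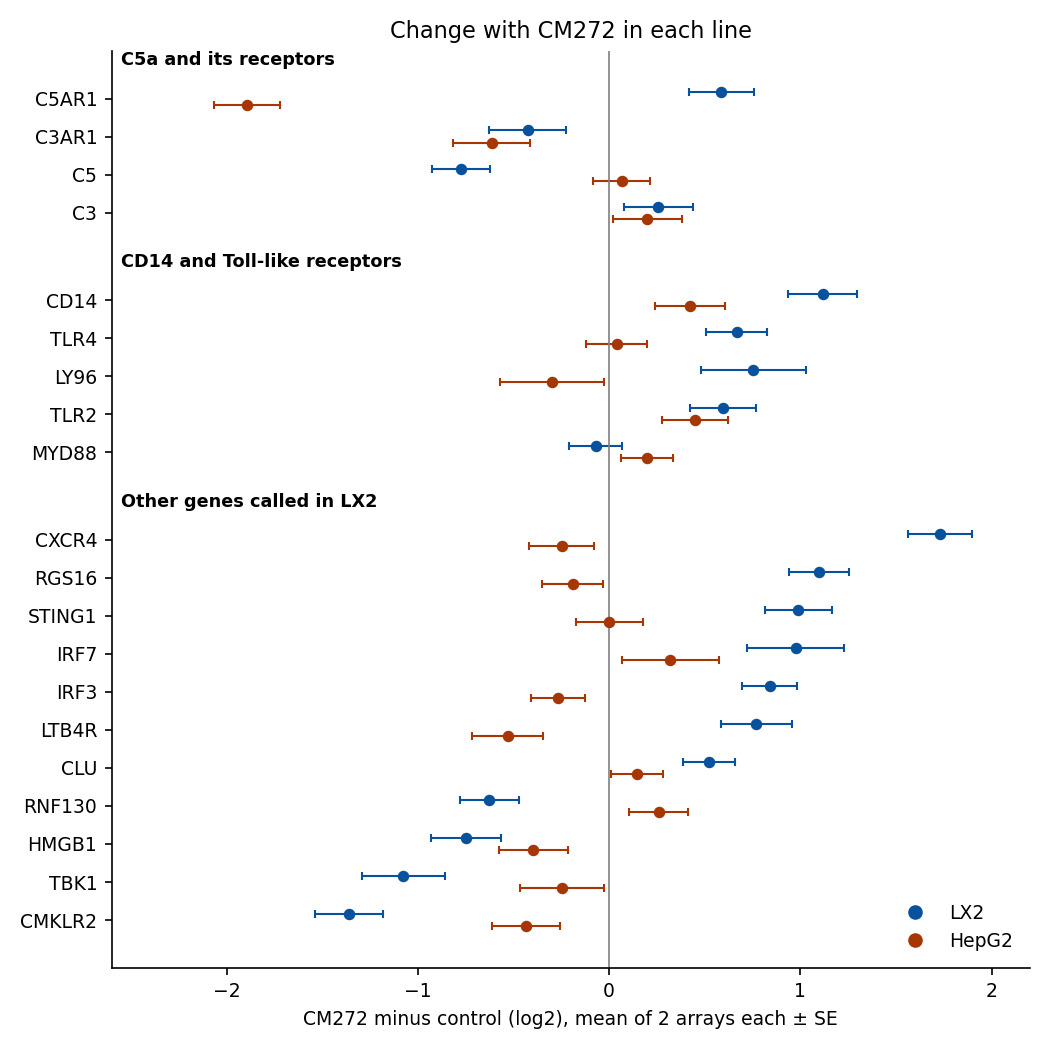
Change with CM272 (log2) in LX2 and in HepG2 for C5AR1, CD14 and the related genes named in the text, with bars of 1 SE from the limma fit. C5AR1 lies at 0.59 in LX2 and -1.89 in HepG2, and CD14 at 1.12 and 0.42.

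Both receptors are best known from myeloid cells, whose other markers were read beside them. Of 30 myeloid and leukocyte markers, 15 were named in the table and 11 tested. None was called with CM272 in either line by limma, nor passed an unadjusted p of 0.05. Over all genes tested, 8.42% were called in LX2 and 0.00817% in HepG2. An unadjusted p under 0.05 marked 10.5% as higher and 14.8% as lower in LX2, and 4.76% and 6.70% in HepG2. With so few markers, nothing is read from the absence of calls. Their mean level was 4.37 and 4.62 in LX2 controls and 4.72 and 4.44 in LX2 with CM272, and it stayed between 5.29 and 5.40 on the 4 HepG2 arrays. This mean marker level overlapped between treated and untreated arrays in both lines, and its part in the changes of CD14 and C5AR1 was not tested. LYZ, the lysozyme gene, was at 12.37 and 12.22 in untreated HepG2 and at 2.87 and 2.83 in untreated LX2. CSF3R was also higher in untreated HepG2. LYZ and CSF3R passed the dim filter only through HepG2, so they had to differ. S100A9 and MARCO of the same list went the other way between the untreated lines, at 4.75 and 4.57 (S100A9) and 4.12 and 3.99 (MARCO) in HepG2 against 5.69 and 5.80 and 4.41 and 4.63 in LX2. PTPRC and ITGAM, which define leukocytes and myeloid cells, carry no name in the table used here. The list of 13 myeloid transcription factors had 7 tested genes, with medians of 0.14 in LX2 and 0.13 in HepG2. None of these was called in either line, beside the same shares over all genes.

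The wider pathways were read from 9 lists holding 91 tested genes beside C5AR1 and CD14. In LX2, 8 were called higher and 5 lower by limma (15 and 8 at an unadjusted p under 0.05), 14.3% of the 91. Over all genes tested, 8.42% were called in LX2, and the unadjusted threshold marked 10.5% as higher and 14.8% as lower. The 91 had a median change of 0.0074 against -0.02 for all genes. In HepG2, none was called in either direction, while an unadjusted p under 0.05 marked 10 as higher and 7 as lower. That threshold marked 4.76% of all genes as higher and 6.70% as lower in HepG2, and the median of the 91 was 0.04. The LX2 counts followed single arrays: they were 2 and 0 without LX2 control replicate 1, 1 and 1 without LX2 control replicate 2, and 14 and 5 without LX2 CM272 replicate 2. Leaving out a HepG2 array gave 4 or 5 higher and 3 or 4 lower.

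Upstream of C5AR1 stand the complement components. C5, the source of its ligand, fell in LX2, from 6.16 and 5.96 to 5.41 and 5.17. The change was -0.77 (SE 0.15), with an adjusted p of 0.0183 by limma, and it was lost without either LX2 control array (adjusted p 0.15 and 0.11). In HepG2, where C5 was brighter, it read 9.27 and 9.11 without and 9.27 and 9.23 with CM272. C3, which feeds the step that cuts C5, read 7.48 on both arrays in LX2 controls and 8.01 and 7.47 with CM272, and 11.75 and 11.89 against 11.98 and 12.06 in HepG2. The groups of C3 overlapped in LX2 and did not in HepG2, where the difference was 0.20. In HepG2 20.7% of all genes tested had both CM272 arrays above both controls. Of 16 tested complement components and proteases, C5 was the 1 call in LX2 and none was called in HepG2, with medians of 0.24 and 0.25. Over all genes tested, 8.42% were called in LX2 and 0.00817% in HepG2, so these counts lie near those shares. Between untreated lines, 11 of the 16 were called higher in HepG2 and none lower: C2, C3, C4A, C4B, C5, C6, C7, CFB, MASP1, MASP2 and COLEC11. Over all genes 17.7% were called higher there. C6, C7 and MASP1 passed the dim filter only through HepG2, where they were high, so these 3 of the 11 had to differ. The liver parenchyma is the main source of these plasma proteins. Among 5 tested complement regulators, CLU, which encodes the secreted chaperone clusterin, rose in LX2 by 0.52 (SE 0.14, adjusted p 0.0451 by limma).

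The sister receptors of C5AR1 were dim on these arrays. C3AR1, the receptor for C3a, read 4.24 and 4.09 without and 3.84 and 3.27 with CM272 in HepG2, a difference of -0.61 (SE 0.20), and in LX2 4.21 and 4.10 against 3.89 and 3.58, a difference of -0.43 (adjusted p 0.224 by limma). Both CM272 arrays were below both controls in each line, as they were for 28.6% of all genes in LX2 and 28.2% in HepG2, though part of the values are under the filter. C5AR2, the second C5a receptor, which does not couple to G proteins, was too dim to test, at 3.54 to 4.27 on all 8 arrays. None of the 4 tested anaphylatoxin and complement receptors beside C5AR1, with C3AR1 among them, was called in either line. Over all genes tested, 8.42% were called in LX2 and 0.00817% in HepG2, so nothing is read from this. CD46, CD55 and CD59, which protect cells from complement, carry no name in the table used here.

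Among other chemoattractant receptors, CXCR4, the receptor for CXCL12, rose in LX2 from 4.05 and 4.22 to 5.84 and 5.90. Its change of 1.73 (SE 0.17, adjusted p 9.39e-04 by limma) was called in all 8 fits that left out 1 array, alone among the 13 calls of these lists. In HepG2 it read 4.29 and 4.13 against 4.18 and 3.75. LTB4R, a leukotriene B4 receptor, rose by 0.77 in LX2 (SE 0.18, adjusted p 0.0356) and read -0.53 in HepG2. Its LX2 change was 0.51 without LX2 control replicate 2 and 1.03 without replicate 1, and it was called in neither fit (limma adjusted p 0.27 and 0.060). CMKLR2, a receptor for chemerin, fell in LX2 from 6.51 and 6.24 to 4.80 and 5.22, a change of -1.36 (SE 0.18, adjusted p 0.00425 by limma). These 3 were the calls among 10 tested receptors of this kind. Over all genes tested in LX2, 3.79% were called higher and 4.63% lower. Of 5 tested genes of G protein and arrestin signalling, RGS16, which speeds the shut-off of G proteins, rose in LX2 from 5.09 and 4.89 to 6.01 and 6.16 (1.10, SE 0.16, adjusted p 0.00594).

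On the CD14 side, TLR4, which carries the lipopolysaccharide signal into the cell, rose in LX2 from 5.74 and 5.51 to 6.12 and 6.47. The change was 0.67 (SE 0.16, adjusted p 0.0356 by limma), and it passed in 1 of the 8 fits that left out 1 array, with adjusted p between 0.025 and 0.26. In HepG2 TLR4 stayed within 3.98 to 4.08 on all 4 arrays. LY96 read 4.15 and 4.29 against 4.49 and 5.45 in LX2, where the difference of 0.75 missed the threshold (adjusted p 0.124). It was under the filter on every HepG2 array, at 2.23 to 2.76. TLR2, which also works with CD14, read 4.74 and 5.15 against 5.65 and 5.42 in LX2 (0.60, adjusted p 0.0641 by limma) and 4.24 and 4.44 against 4.79 and 4.80 in HepG2. LBP was too dim to test, at 3.46 to 4.10 on all 8 arrays. In LX2 the CM272 arrays of CD14, TLR4, LY96 and TLR2 each lay above the controls, as they did for 23.5% of all genes tested. CD14 and TLR4 were called higher, as were 3.79% of all genes tested.

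Of 9 tested CD14 partners and Toll-like receptors, TLR4 was called higher in LX2 and RNF130 and HMGB1 lower, and none in HepG2. For this list and those below, 3.79% of all genes tested were called higher in LX2 and 4.63% lower. In HepG2 the shares were 0% and 0.00817%. HMGB1, a nuclear protein that acts as a danger signal outside the cell, changed by -0.75 (SE 0.18, adjusted p 0.0371 by limma) and RNF130 by -0.63 (adjusted p 0.0393). Between untreated lines 6 of the 9 were called lower in HepG2, TLR4 and TLR2 among them, where 40.5% of all genes were. LY96, TLR3 and TLR5 passed the dim filter only through LX2, so these 3 of the 6 had to differ. In the 21 tested adaptors and kinases, IRF3 and IRF7, the transcription factors that switch on interferon genes, rose in LX2 by 0.84 and 0.98 (adjusted p 0.0115 and 0.0451 by limma). TBK1, the kinase that activates IRF3, fell from 7.98 and 8.05 to 6.60 and 7.29 (-1.08, SE 0.22, adjusted p 0.0215). MYD88, the adaptor shared by most Toll-like receptors, read 6.93 and 6.74 against 6.72 and 6.80 in LX2, where the groups overlapped. STING1, the sensor adaptor for cytosolic DNA, was the 1 call among 15 other innate receptors, at 6.25 and 6.17 against 7.33 and 7.07 in LX2 (0.99, adjusted p 0.0132) and with no difference beyond its spread in HepG2 (0.0013, SE 0.18).

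The calls differed in how far they rest on single arrays. RGS16 and CMKLR2 were called in 7 of the 8 fits that left out 1 array, and STING1, IRF3, C5 and TBK1 in 6. IRF7 was called in 3, RNF130 in 2, and LTB4R, TLR4, CLU and HMGB1 in 1. Over these fits the limma adjusted p reached 0.27 for RNF130 and LTB4R, 0.25 for IRF7, 0.24 for CLU, 0.20 for HMGB1, 0.16 for TBK1, 0.13 for STING1, 0.11 for IRF3, 0.094 for RGS16 and 0.059 for CMKLR2. In such a fit a group of 1 array is assumed to vary like the others.

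The genes whose pattern over the 8 arrays came nearest to each receptor were picked by the distance between values centred on each gene's mean. For C5AR1 these were IL4R (distance 1.25, r = 0.94), PDLIM3 (1.25, r = 0.89), KLF10 (1.27, r = 0.84), ARHGAP40 (1.28, r = 0.82) and LINC02800 (1.31, r = 0.90). All 5 were lower in HepG2 with CM272, with changes of -0.79 to -1.26 against the -1.89 of C5AR1. C5AR1 was chosen as the largest fall there and these genes for their likeness to it. Neither their direction nor their smaller size is therefore read as a result. IL4R, the interleukin-4 receptor chain, read 8.27 and 8.16 in untreated HepG2, 7.45 and 7.39 with CM272, and 7.13 to 7.74 in LX2. For CD14 they were CDKL3 (0.43, r = 0.99), MIR1193 (0.53, r = 0.98), KCTD1 (0.54, r = 0.99), TRIM43B (0.60, r = 0.99) and AZIN2 (0.61, r = 0.98). CDKL3 rose in LX2 from 4.30 and 4.73 to 5.64 and 5.48. The nearest gene lay closer to CD14 than to C5AR1, and the receptors themselves were 4.10 apart (r = -0.38). These are descriptions over 8 arrays in 4 groups, which share the line difference.

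**Figure D3:**
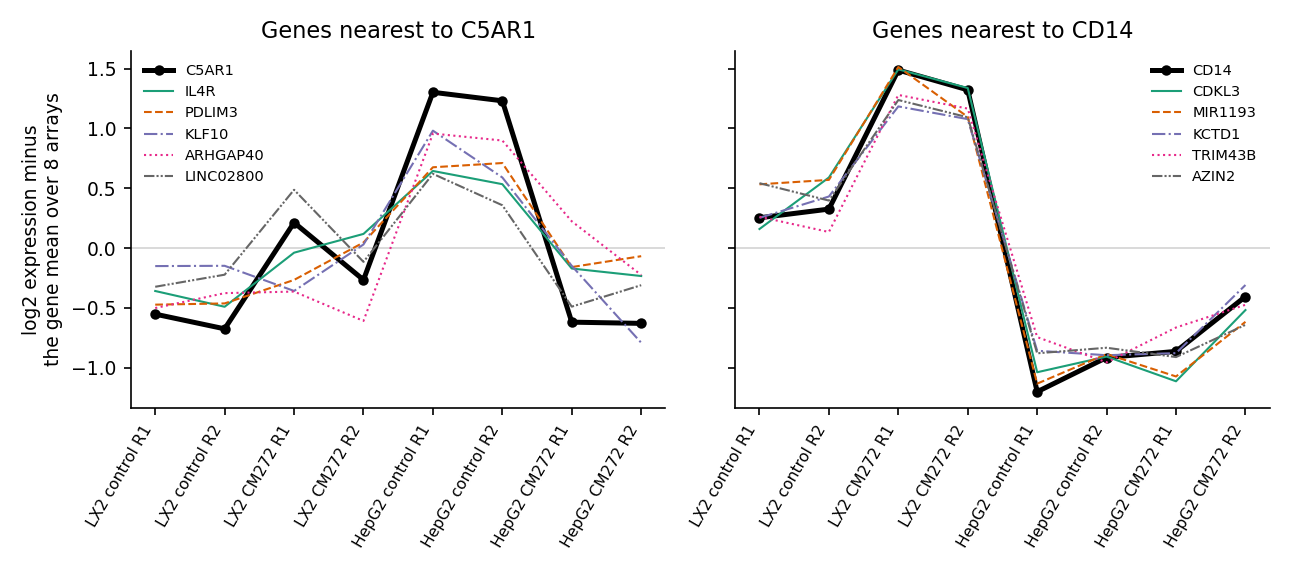
Log2 values centred on each gene's mean over the 8 arrays, for C5AR1 and CD14 and the 5 genes nearest to each; lines only join the points of 1 gene. The 5 genes near C5AR1 change by -0.79 to -1.26 in HepG2, against -1.89 for C5AR1, which was chosen as the largest fall there. The 5 genes near CD14 have distances of 0.43 to 0.61.

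The genes on either side of each receptor on its chromosome were read from the order in RefSeq. Around C5AR1, MIR3190 changed by 0.19 in LX2 and -0.75 in HepG2, CCDC9 by -0.02 and -0.01, and INAFM1 by 0.84 and 0.10. C5AR2 changed by -0.14 and -0.31, DHX34 by 0.47 and -0.38, and MEIS3 by 0.09 and 0.83. INAFM1 was called higher in LX2, from 5.99 and 5.77 to 6.82 and 6.62 (SE 0.15, adjusted p 0.0145 by limma). Over all genes tested in LX2, 3.79% were called higher and 4.63% lower. C5AR2 was too dim to test, and none of the other neighbours was called in HepG2. Over all genes tested in HepG2, 0% were called higher and 0.00817% lower, so nothing is read from this. The size of each change in HepG2 was under 0.5 log2 units except for MIR3190 and MEIS3. Around CD14, the 6 named neighbours (ANKHD1-EIF4EBP3, SRA1, TMCO6, WDR55, DND1 and HARS1) changed by -0.21 to 0.27 in LX2. None of them was called in either line, beside the same shares over all genes. TMCO6, whose gene overlaps CD14 in RefSeq, read 6.44 and 6.32 against 6.35 and 6.04 in LX2, so the 1.12 of CD14 was not seen in it.

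**Figure D4:**
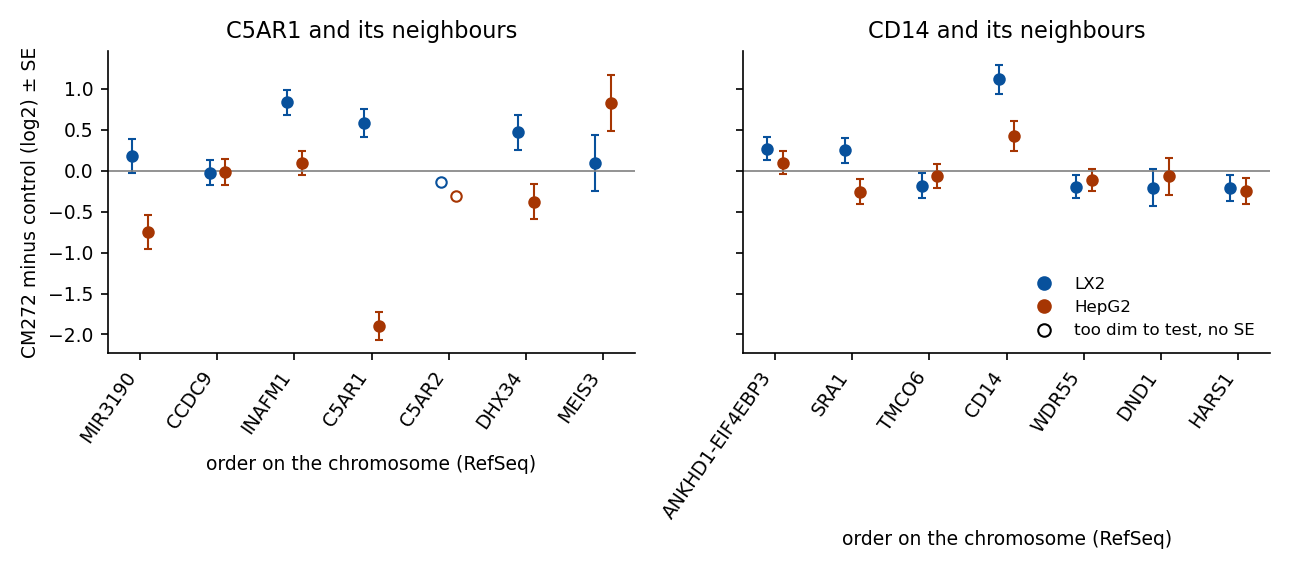
Change with CM272 (log2) in LX2 and HepG2 for C5AR1, CD14 and the 3 named genes on either side of each, in their order in RefSeq and not to scale of distance; bars are 1 SE, and C5AR2, under the dim filter, has none. C5AR1 lies at -1.89 in HepG2, where it was chosen as the largest fall, so its tested neighbours had to fall less. CD14 in LX2 (1.12) exceeds every neighbour shown in that line.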

How the data were processed

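Total RNA (300 ng per sample) of 8 samples was hybridised to Affymetrix whole-transcript arrays. The deposited values are log2 expression values per probe set that the authors made with RMA, per the submitters' processing notes (no version stated there); they ran from 0.49 to 14.07. RMA compresses folds of dim genes. Array medians ran from 4.19 to 4.54, so the deposited arrays do not share 1 distribution. The genome build behind the array is not stated in the labels. Of 48416 probe sets, 16098 had 1 symbol and 32318 none, and all 16098 matched RefSeq by gene identifier. The probe set with the highest mean stood for a symbol. Genes over log2 4 in both arrays of at least 1 group were tested (12239; 2645 were not). Limma 3.58.1 (R 4.3.3) was run once with 4 group means (4 residual and 5.47 prior degrees of freedom) for all contrasts, two-sided, with Benjamini-Hochberg adjustment over the 12239 genes and a threshold of 0.05. An exact permutation test of 2 arrays against 2 cannot go below 0.333. The script was tested on simulated data.

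The members and the 9 pathway and 3 marker lists were chosen with earlier results of these data known, so their agreement with those results is no independent evidence. Named were both receptors, 12 related genes where the table holds them, up to 6 called members of a list per treatment comparison, the 5 nearest genes in pattern, 3 neighbours on each side and the next 3 falls in HepG2. LYZ, CSF3R, S100A9, MARCO and the markers without a call were named after their values were seen. Alternatives changed the filter, normalization, prior variance, probe set rule, array weights, line-wise fit and replicate block, and left out each array. Figures were drawn with matplotlib 3.10.9. Arrays give no counts, so their number limits the precision.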

Additional observations from a re-analysis of the deposited data

Results flagged for a closer look

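For C5AR1, the change in HepG2 minus that in LX2 was -2.48, with both CM272 arrays below both controls in HepG2 and above both in LX2. That difference was not tested, since the HepG2 contrast chose the gene. Among the called genes of the pathway lists, limma's interaction term passed the threshold for CXCR4, RGS16 and IRF3 after Benjamini-Hochberg adjustment. The list genes were taken here by their LX2 calls, and the LX2 change is part of the interaction. Their interaction p-values are therefore no independent evidence, and the share of all genes passing on this term is not given here. Genes named for a fall in HepG2 or for their likeness to C5AR1 were chosen on this pattern and are not listed here. CXCR4 differed by -1.98 (adjusted p 0.00721), RGS16 by -1.29 (adjusted p 0.0337) and IRF3 by -1.11 (adjusted p 0.0381). All 3 rose in LX2 and read -0.25, -0.19 and -0.27 in HepG2. Serum level went with the line, so its share in these differences cannot be told apart.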

How the results depend on the processing

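The direction of every change of C5AR1 and CD14 held under all alternatives run. The fall of C5AR1 in HepG2 lay between -1.94 and -1.86, and CD14 between the untreated lines between -1.49 and -1.11. That CD14 difference was called in every alternative that kept both arrays of each group. With the filter at log2 6, and in the line-wise fit of the untreated arrays alone, CD14 entered only through LX2, where it is high. Nothing rests on the CD14 calls of those fits. Without single arrays, CD14 in LX2 lay between 1.03 and 1.20 (limma adjusted p 0.010 to 0.096), C5AR1 in LX2 between 0.35 and 0.83 (0.0097 to 0.32), CD14 in HepG2 between 0.19 and 0.65, and the difference between the lines' changes between -2.72 and -2.24 for C5AR1 and -0.92 and -0.46 for CD14. C5AR1 in LX2 passed with the filter at log2 6 (0.59, adjusted p 0.033), but it entered that fit only through untreated HepG2, where it is high, so nothing rests on this call. C5AR1 between untreated lines was 2.09 after quantile normalization over the 8 arrays and 2.11 after median centring, both of which shift the median of all genes. Of the pathway genes in LX2, 8 higher and 5 lower became 4 and 3 with no filter and with all probe sets, 3 and 1 with each line fitted alone, and 4 and 2 with array weights; leaving out arrays gave 1 to 14 and 0 to 5. Calls over all genes in LX2 were 1031, against 760 with no filter, 207 with each line fitted alone, 283 with array weights, 1399 with limma-trend, 1540 with all probe sets and 55 to 2496 without single arrays; the cause was not tested. Same-numbered arrays deviated together by r between -0.054 and 0.077. The labels do not say whether they were paired, and a low r cannot exclude it. With the replicate block, CD14 in LX2 was 1.12 (adjusted p 0.0116) and C5AR1 0.59 (0.0605), 7 pathway genes were higher and 5 lower, and 931 genes were called, with CLU lost (0.0561). The 2 arrays per group limit all of these values.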

Other observations

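Terminal complement gave values outside the tested set. C9, the last component of the membrane attack pore, read 3.08 and 2.56 in LX2 controls and 3.75 and 4.66 with CM272, and stayed between 2.49 and 2.90 on the 4 HepG2 arrays. It was chosen after its values were seen and did not enter the tests, because only 1 array was over the filter. CPB2, the plasma carboxypeptidase that trims C5a, read 7.26 and 7.88 in untreated HepG2 and 8.35 and 8.85 with CM272, a difference of 1.03 that limma did not call in HepG2 (adjusted p 0.227), and it was at 2.95 to 3.11 in LX2. It too was chosen after its values were seen.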
